A study of Mus musculus with 8 samples.

Results

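Mature migratory dendritic cells were picked out by their transcripts from the CD45+ cells of mouse skin wounds. A cell was kept when it had more than 200 detected non-mitochondrial genes and less than 20% mitochondrial UMIs (unique molecular identifiers, each standing for 1 captured transcript). Of the kept cells, a member had at least 5 UMIs of Fscn1, Ccl22 and Ccr7 added together (called the gate sum here), at least 2 of these 3 genes detected, at least 50 UMIs of H2-Aa, H2-Ab1, H2-Eb1 and Cd74 per 10000 non-mitochondrial UMIs, and 0 UMIs of Cd3e. The rule found 798 members among 35158 kept cells, which is 2.27%, out of 38959 deposited barcodes.

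The wounds came from male C57BL/6J mice, either made diabetic with streptozotocin (STZ) or left as controls. STZ, a toxin of pancreatic beta cells, was given at 120 mg/kg to mice 4 weeks of age, and glucose of at least 16.5 mmol/L defined diabetes, so this is a model of insulin deficiency. Full-thickness 5 mm wounds were made on the back, and CD45+ leukocytes were sorted on days 1, 3, 5 and 7 after wounding. Each of the 8 libraries pooled 5 mice, and each group had 1 library per day, so the 4 days stand in for replicates of the group comparison. All p-values below therefore measure only the spread between these libraries.

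Dendritic cells take up antigen in a tissue, and on maturation they stop sampling, load peptides on MHC class II and leave for the draining lymph node. Ccr7 is the chemokine receptor that guides this exit, Fscn1 encodes the actin-bundling protein fascin that shapes their long processes, and Ccl22 is a chemokine that attracts T cells bearing Ccr4. The same programme is known for raising both costimulatory molecules, which activate T cells, and inhibitory ones, which restrain them.

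The members' median was 8240 UMIs and 2354 genes per cell, and library medians lay between 7183 and 10340 UMIs. Over all kept cells the control day 5 library stood apart, with a median of 8234 UMIs against 2575 to 5219 in the other 7, and 28.6% of its barcodes were removed by the filter. A doublet caller (Scrublet) marked 68 of 35158 cells, 0.193%, and so had not worked; 3 of the 68 were members. No cell column was identical between libraries, and barcodes shared between libraries could not be counted because cells were deposited under running numbers.

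The gate genes are shown as a description only, because they chose the members. The median gate sum was 26 and the highest was 560. Of the members, 205 had a gate sum of 5 to 9, 137 had 10 to 19 and 456 had at least 20, while 337 cells just outside the rule had a gate sum of 3 or 4. A further 116 cells met the other conditions but held Cd3e, 96 fell short on MHC class II and 191 had only 1 of the genes.

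The members with high and low gate sums did not have the same transcriptome. Expression is given as CPM, the UMIs of a gene per 1000000 non-mitochondrial UMIs of the summed cells. Tbc1d4, a Rab GTPase-activating protein and the fourth marker of these cells, which the rule did not use, stood at 174 CPM just outside the rule, 552 CPM at 5 to 9, 1156 CPM at 10 to 19 and 3420 CPM at 20 or more. Cacnb3, a calcium channel beta subunit, followed the same order with 29.2, 62.5, 176 and 1025 CPM. Macrophage transcripts ran the opposite way. The complement gene C1qa stood at 710, 387, 174 and 98.6 CPM over the same classes, and Apoe at 5845, 3385, 1653 and 1196 CPM, against 950 and 7100 CPM in the cells here called C1q macrophages (at least 5 UMIs of C1qa, C1qb and C1qc, no Cd3e, not members).

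**Figure D1:**
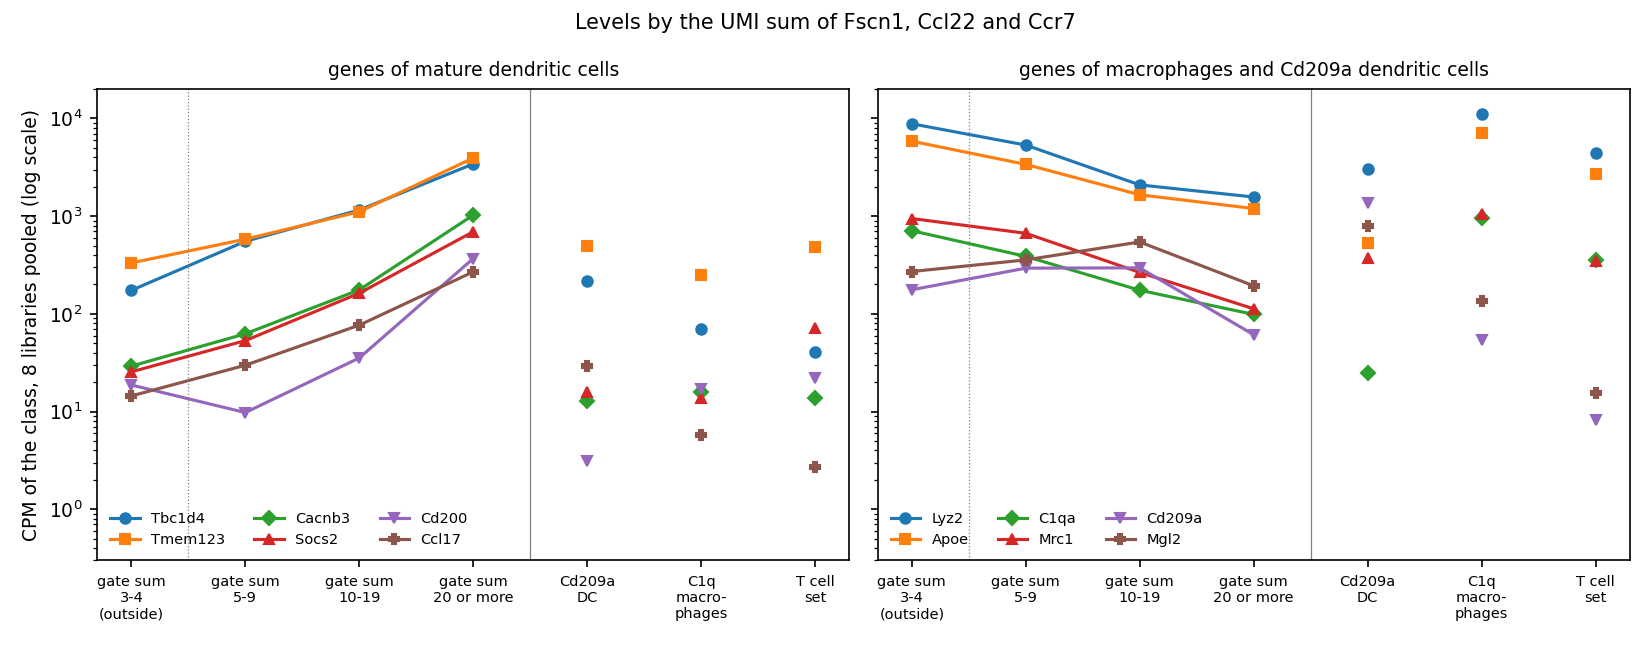
Expression (CPM, log axis) of genes that the rule did not use, summed over 8 libraries, in cells with a gate sum of 3 to 4 (outside the rule), 5 to 9, 10 to 19 and at least 20, and in Cd209a dendritic cells, C1q macrophages and the T cell set. Tbc1d4 goes from 174 to 3420 CPM across the gate classes while C1qa goes from 710 to 98.6 CPM.

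The label thus held best for the 456 members with the highest gate sums by Tbc1d4 and Cacnb3. Markers of other leukocytes were present in members of both kinds, since the 8 macrophage markers summed to 6910 CPM on control day 7 in those with a gate sum of at least 20 and 8080 CPM in all members. Of all members, 338 members had at least 5 C1q UMIs, 65 had at least 2 UMIs of the T cell genes Cd3d, Cd3g and Trac, 44 had at least 2 of the neutrophil genes Csf3r and Cxcr2, and 3 had at least 2 of the B cell genes Cd79a and Cd79b. Members with at least 5 C1q UMIs made up 0, 28.2, 6.59 and 69.35% of the diabetic members on days 1, 3, 5 and 7. In the control libraries they made up 0, 14.3, 78.6 and 95.6%. The 8 macrophage marker genes were also measured in cells that should lack them. In a T cell set (at least 2 UMIs of Cd3d, Cd3g and Trac, fewer than 50 MHC class II UMIs per 10000, not members) they summed to 1430, 5080, 1730 and 3330 CPM in the diabetic libraries and 1380, 2870, 9870 and 10300 CPM in the control libraries. In the members the same sums were 526, 1760, 1070 and 6290 CPM and 356, 1580, 4880 and 8080 CPM. How far RNA from other cells contributed to the members' macrophage transcripts was not tested. T cell markers in the members summed to 13.5 to 281 CPM, against 3160 to 6360 CPM in the T cell set, and keratinocyte markers to 0 to 4.94 CPM. The Fscn1, Ccl22 and Ccr7 conditions alone were met by 0 to 2.21% of the T cell set and 0 to 0.67% of a neutrophil set across libraries. Both sets were defined by fewer than 50 MHC class II UMIs per 10000, so none of their cells could be members.

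The share of mature dendritic cells among the kept cells was lowest on day 1 in both groups. It was 0.526, 2.15, 4.35 and 5.46% on days 1, 3, 5 and 7 in the diabetic wounds, from 25, 117, 182 and 199 members. In the control wounds it was 0.521, 1.89, 2.14 and 1.96%, from 23, 91, 70 and 91 members. The control shares were thus level from day 3 on, and the diabetic shares on days 5 and 7 were the highest of the 8 libraries.

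The ratio of the diabetic to the control share was 1.01 (exact 95% interval 0.549 to 1.86, counting error only) on day 1 and 1.14 (0.857 to 1.51) on day 3. It was 2.03 (1.53 to 2.71) on day 5 and 2.79 (2.17 to 3.62) on day 7. With 1 library per group and day these intervals compare libraries, not conditions. Over the 4 days the mean log2 ratio was 0.67 (SD 0.70, n = 4 days), 4 of 4 days were higher in the diabetic library, and the two-sided exact permutation p was 0.125, the smallest that 4 days allow.

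Part of this excess lay in the members with low gate sums. Counting only the 456 with a gate sum of at least 20, the shares were 0.294, 1.23, 2.68 and 2.30% in the diabetic and 0.408, 1.31, 1.35 and 1.16% in the control libraries. The ratios were then 0.721 (0.332 to 1.535), 0.940 (0.656 to 1.35), 1.99 (1.39 to 2.885) and 1.985 (1.39 to 2.85), and the mean log2 ratio was 0.35 (SD 0.75, 2 of 4 days higher, exact permutation p = 0.5). Members with a gate sum of 5 to 9 gave day 5 and day 7 ratios of 2.51 and 4.18. As a share of all cells high in MHC class II and lacking Cd3e, the ratios over the 4 days were 0.586, 1.23, 1.99 and 2.38. After each cell was thinned to 1000 UMIs, with 3620 shallower cells left out, they were 0.749, 0.975, 1.955 and 2.68. This count asked for a gate sum of at least 2 in place of 5, and its MHC class II and Cd3e conditions used the unthinned counts. The diabetic share was higher on day 5 than on day 7 with a gate sum of at least 20 and also by the last 2 counts, at 11.3 against 7.69% of the MHC class II-high cells and 3.12 against 3.02% after thinning. The day 5 and day 7 ratios thus stayed above 1 under these counts, and those of days 1 and 3 did not do so in all of them. Removing the 377 members with markers of other lineages gave ratios of 8.07 on day 5 and 16.6 on day 7, from 155 against 15 and 52 against 4 members. These carry no weight for the difference, since the C1q condition alone removed 78.6 and 95.6% of the control but 6.59 and 69.35% of the diabetic members on those days.

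**Figure D2:**
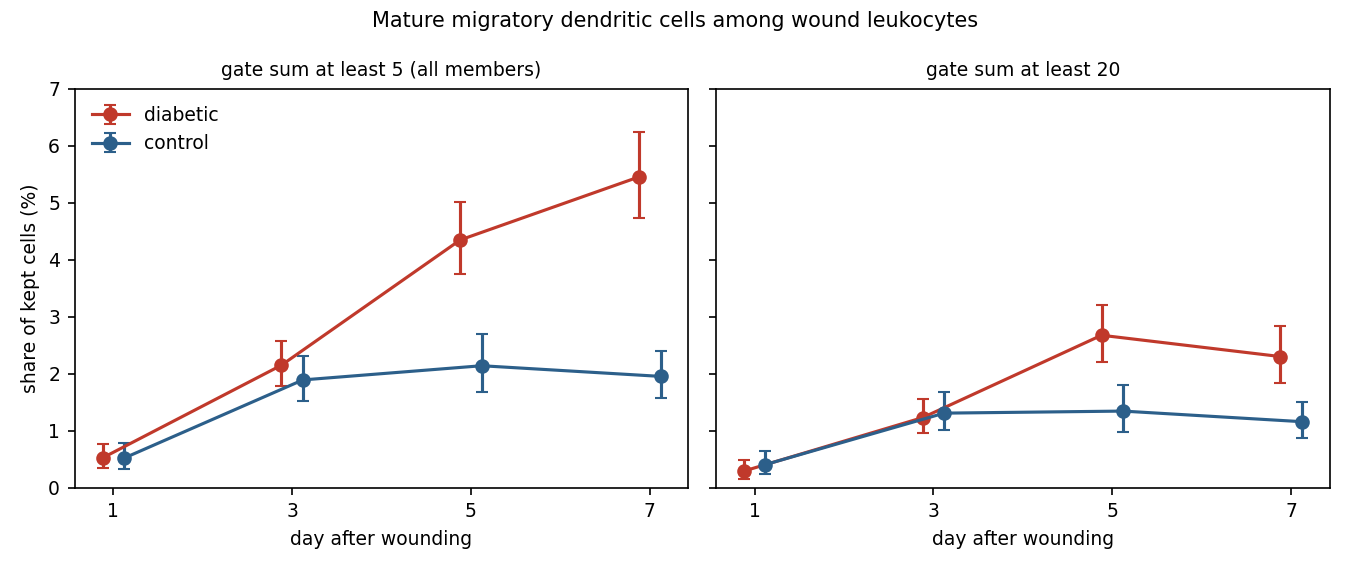
Share of kept cells (%) that were mature dendritic cells on days 1, 3, 5 and 7 in diabetic and control wounds, for a gate sum of at least 5 and of at least 20; bars are exact 95% intervals for counting error, with 1 library per point. The groups separate on days 5 and 7 in both panels, where the ratios are 2.03 and 2.79 on the left and 1.99 and 1.985 on the right.

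To describe what sets these cells apart, the members of each library were set beside the Cd209a dendritic cells of the same library. These were non-members with at least 2 UMIs of Cd209a, a lectin of monocyte-derived and type 2 dendritic cells, with the same MHC class II and Cd3e conditions and fewer than 5 C1q UMIs. There were 545 of them, 87, 113, 125 and 56 in the diabetic and 24, 119, 14 and 7 in the control libraries, so the last 2 control values are thin. No test is given, since both sets were chosen by their transcripts. Of 8894 genes with enough UMIs, 572 (6.43%) were higher in the members in all 8 libraries and 437 (4.91%) were lower in all 8, which is the background for the counts that follow.

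Genes of migration and the cytoskeleton come first. The list holds Tbc1d4, Tmem123 and Cacnb3, which were already known as markers of these cells in this study, so its count is no independent evidence. Of 18 listed, 12 were higher in the members in all 8 libraries and 1, the adhesion receptor Cd44, was lower, with a median log2 ratio of 1.26 against -0.12 over all genes. Tbc1d4 was at 1300, 2560, 2330 and 2120 CPM in the diabetic members on days 1, 3, 5 and 7. In the control members it was at 2620, 2350, 1960 and 2260 CPM, and in the Cd209a dendritic cells it lay between 0 and 528 CPM. The 2 sets of cells did not overlap, and the groups of mice did. Cacnb3 was at 684, 679, 698 and 395 CPM in the diabetic and 1080, 872, 552 and 580 CPM in the control members, against 0 to 43.8 CPM in the Cd209a dendritic cells. Its median fold over the libraries was 38.8, with a count of 0, in 2 of them, read as 3 UMIs, and the Cd209a dendritic cells of control day 7 held 1 UMI. After thinning each cell to 1000 UMIs, Cacnb3 was found in 38.6% of the members (61.8% unthinned), 2.09% of the Cd209a dendritic cells and 1.16% of the T cell set. Tmem123, a membrane protein also known as porimin, was at 2400, 2850, 2530 and 1780 CPM in the diabetic and 3900, 3210, 3240 and 2330 CPM in the control members. Others of the list higher in all 8 were Marcks and Marcksl1, which bind actin and membrane, the disintegrin family member Adam23, the integrin ligand Icam1, Anxa3, Myo1g, Rhoc, Cd63 and Tspan33.

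Over all genes apart from the gate genes, listed or not, 1577 had at least 20 member UMIs in every library. Of these, 41 were more than 2-fold higher in all 8 libraries. The Cd209a dendritic cells of control day 7 held only 0, 1 or a few UMIs of most of them, so they are not ranked. They included Cacnb3, the fatty acid binding protein Fabp5 (median 14.5-fold), Tbc1d4, Tmem123, the semaphorin receptor Nrp2 and the melanosome transport regulator Mreg. Others were Uap1, H2-Q7, the granzyme B inhibitor Serpinb9, Ccl5, Spsb1, Rogdi, Socs2 and Actn1, with median folds from 4.20 for Uap1 to 28.6 for Socs2.

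Of 13 chemokine genes apart from the gate gene Ccl22, 3 were higher in all 8 libraries and none was lower. Ccl17, the other ligand of Ccr4, was at 774, 173, 123 and 60.3 CPM in the diabetic and 850, 71.4, 351 and 97.1 CPM in the control members. It was at 0 to 68.1 CPM in the Cd209a dendritic cells and 0 to 15.7 CPM in the T cell set. The members' day 1 libraries were the highest of each group. After thinning, 8.61% of the members had a Ccl17 UMI, against 1.52% of the Cd209a dendritic cells and 0.341% of the T cell set, so the transcript sat in a minority of the members at this depth. Ccl5 was also higher in all 8, at 467 to 1070 CPM, and the T cell set held 482 to 4340 CPM. The third was Cxcl16, the ligand of Cxcr6, at 752 to 954 CPM.

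**Figure D3:**
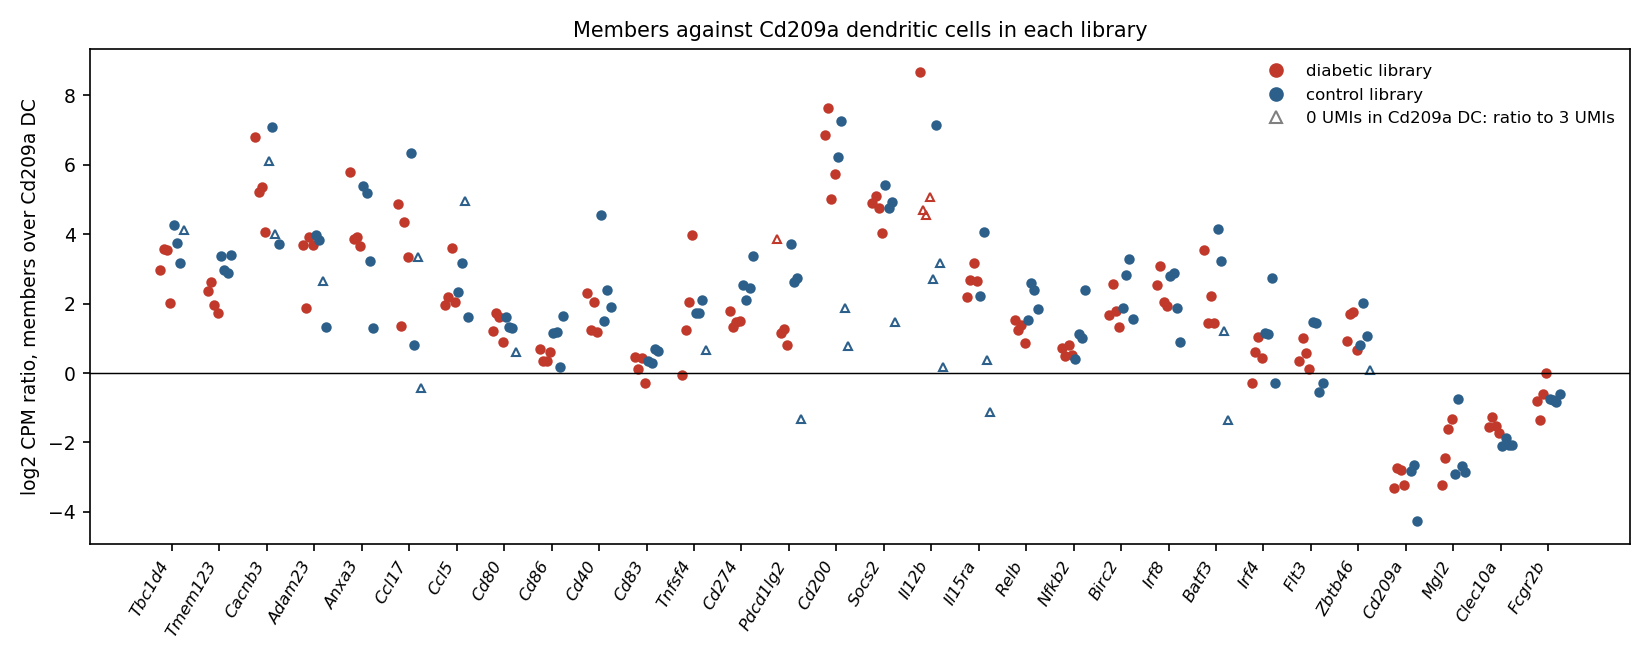
Log2 ratio of CPM in mature dendritic cells over Cd209a dendritic cells for 30 genes, 1 point per library; open triangles mark libraries where the Cd209a dendritic cells had 0 UMIs and the ratio was taken to 3 UMIs. Tbc1d4, Tmem123 and Cacnb3 lie above 0 in every library, and Cd209a itself, used to choose the reference cells, lies below 0.

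Costimulatory and inhibitory genes were higher together. Of 14 costimulatory genes, 6 were higher in all 8 libraries and 1, Cd48, was lower, and of 16 checkpoint and tolerance genes, 7 were higher and none was lower. Cd80, a ligand of Cd28 and Ctla4, was at 184, 339, 512 and 198 CPM in the diabetic and 193, 202, 225 and 200 CPM in the control members. Cd40, the receptor for T cell help, was at 486, 360, 292 and 253 CPM and 747, 207, 360 and 163 CPM. Cd86, Slamf1, Tnfrsf4 and Tnfrsf9 made up the rest of the 6. Cd83, a maturation marker, was not among them: after thinning it was found in 53.7% of the members and 49.6% of the Cd209a dendritic cells. Tnfsf4, which encodes OX40 ligand, was found in 17.7% and 5.70%.

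On the inhibitory side Cd274, which encodes PD-L1, was at 738, 821, 638 and 577 CPM in the diabetic and 1240, 481, 436 and 453 CPM in the control members. The control day 1 library was the highest of the 8, and the groups overlapped. Cd200, ligand of an inhibitory receptor on myeloid cells, was at 180, 259, 195 and 158 CPM and 395, 390, 127 and 223 CPM, and was found in 16.45% of thinned members against 0.190% of the Cd209a dendritic cells. Socs2, a suppressor of cytokine signalling, was at 279, 541, 435 and 384 CPM and 677, 489, 347 and 364 CPM, found in 31.2% against 1.14%. Pdcd1lg2, Socs1, the interleukin-2 receptor subunit Il2ra and the retinoic acid synthesising enzyme Aldh1a2 completed the 7.

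Of 19 cytokine and receptor genes, 4 were higher in all 8 libraries, namely Il12b, Il15ra, Tnf and Il21r, and 3 were lower, Crlf2, Il13ra1 and Ifngr1. Il12b, the p40 subunit shared by interleukin-12 and interleukin-23, was at 634, 101, 71.3 and 295 CPM in the diabetic and 104, 181, 312 and 148 CPM in the control members. Single cells carried much of it: 1 cell held 69.5% of the UMIs on diabetic day 1, 100% on control day 1 and 62.2% on control day 7. After thinning it was found in 7.97% of the members and 0.0681% of the T cell set.

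In the NF-kappaB list, 6 of 19 genes were higher in all 8 libraries and 1, Bcl3, was lower. Relb, the subunit of the non-canonical pathway, was at 301, 298, 267 and 224 CPM in the diabetic and 395, 313, 240 and 315 CPM in the control members. The others were its partner Nfkb2, Traf1, Birc2, Nfkbib and Tank. Of the survival genes, Bcl2l1, which protects mitochondria from apoptosis, was at 64.3 to 156 CPM in the members and was higher in all 8.

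Dendritic cell lineage genes gave a divided picture. Of 22 transcription factor genes, 6 were higher in all 8 libraries, namely Irf8, Batf3, Zbtb46, Id2, Nr4a3 and Stat4, and Tcf4 was lower. Irf8, which is needed for type 1 dendritic cells, was at 369, 631, 482 and 434 CPM in the diabetic and 257, 656, 334 and 564 CPM in the control members, against 36.9 to 306 CPM in the Cd209a dendritic cells. Flt3, the growth factor receptor of classical dendritic cells, was at 157, 300, 284 and 222 CPM and 321, 340, 211 and 249 CPM, against 1.69 to 7.89 CPM in the T cell set. Summed over the libraries it was at 260.4 CPM in the members and 158.5 CPM in the Cd209a dendritic cells. It was not among the genes higher in all 8. Surface markers of type 1 cells were rare. Clec9a was found in 0.257% of thinned members, and Xcr1 in 2.83%, against 0.0681% and 6.61% of the T cell set, so the Xcr1 share is not read as expression. Of 7 type 2 markers none was higher and 4 (Cd209a, Mgl2, Clec10a and Itgam) were lower in all 8 libraries, a direction that the choice of the reference cells by Cd209a had set in part. Of 5 Langerhans cell markers none was higher in all 8 libraries and 1, Cdh1, was lower, but their median log2 ratio was 0.79 against -0.12 over all genes. Cd207 was found in 0.771% of thinned members and 0.570% of the Cd209a dendritic cells, and the 89 UMIs on diabetic day 1 came from 1 cell. Epcam was found in 2.57% and 0.761%, and in 1.29% of the T cell set.

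By count, receptors for antigen uptake were the list with most genes lower, 6 of 17, though the 4 of 7 type 2 markers are a larger share. The 6 were Cd209a, which chose the reference cells, Mgl2, Clec10a, Fcgr2b, Fcer1g and Cd209d. Against these, 1 was higher, the endocytic receptor Ly75, at 138 to 324 CPM in the members and 0 to 11.8 CPM in the Cd209a dendritic cells. Of 21 antigen presentation genes, 9 were higher in all 8 libraries and 3 were lower. The 9 were genes of the MHC class I route, H2-K1, H2-D1, B2m, the peptide transporter Tap1, the immunoproteasome subunits Psmb8 and Psmb9 and its activators Psme1 and Psme2, together with the class II gene H2-Eb2. The 3 lower genes belong to class II handling, namely the peptide editor subunits H2-DMa and H2-DMb1 and the ubiquitin ligase March1. Among 19 genes of glucose uptake and use, Pfkfb3, which drives glycolysis, was higher in all 8, at 234 to 509 CPM, and Akt2 was lower, 1 gene in each direction, close to the background of 6.43% and 4.91%. The glucose transporter Slc2a1 was at 24.7 to 66.1 CPM. The interferon-stimulated genes Isg15, Mx1 and Gbp2 were higher in all 8, and none of the list was lower.

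Although the members made up 2.27% of the cells and gave 3.85% of all UMIs, they held over 50% of the UMIs of a few genes that the rule did not use when the 8 libraries were pooled. They held 73.1% of the Il12b UMIs (41.2 to 86.0% across libraries), 70.0% of Apol7c (49.4 to 88.2%), 58.2% of Adam23 (48.2 to 71.3%), 54.5% of Cacnb3 (35.7 to 72.4%) and 52.4% of Tbc1d4 (24.3 to 67.5%). For Ccl17 the share was 48.5%, from 29.4 to 82.3% across libraries. They held 42.55% of Socs2, 34.7% of Cd200, 19.7% of Cd80 and 16.9% of Cd40, but only 6.42% of Cd274 and 1.38% of Il15, the remainder lying in other cells.

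The next comparison asked how the members changed as the wounds aged. A line over day, with group as a second term, was fitted to the summed UMIs of the 8 libraries with edgeR's quasi-likelihood test, and a gene was called at a Benjamini-Hochberg adjusted p below 0.05. Of 6984 genes tested, 142 (2.03%) passed, 95 (1.36%) rising and 47 (0.673%) falling. The falling genes include the gate genes Ccl22 and Fscn1, which chose the members, so their calls are not read as results. Among the 456 members with a gate sum of at least 20, 21 passed, 16 rising and 5 falling. Without the diabetic day 7 library 2 passed, and without the control day 7 library 11, so most calls needed both day 7 libraries. The number of falling calls also depended on control day 1. Without day 1 in both groups 101 genes rose and 8 fell, and without control day 1 alone 105 rose and 10 fell. Without diabetic day 1 alone 140 rose and 36 fell.

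Of the genes that fell, 4 are given first. Ccl17 fell by 0.51 per day on the log2 scale (SE 0.103, adjusted p = 0.0256), from 774 and 850 CPM on day 1. Aldh1a2 fell by 0.54 (adjusted p = 0.0282), from 31.5 and 213 CPM on day 1 to 6.3 and 16.2 CPM on day 7. Adam23 stood at 297, 252, 154 and 115 CPM in the diabetic and 415, 182, 215 and 110 CPM in the control members and fell by 0.27 per day (SE 0.0451, adjusted p = 0.0114). Apol7c, an apolipoprotein L family gene, stood at 400, 206, 68.5 and 80.8 CPM and 524, 75.9, 227 and 49.8 CPM and fell by 0.43 (SE 0.0886, adjusted p = 0.0259). In these genes day 1 was the highest of each group. Leaving out either day 7 library ended all 4 calls (adjusted p from 0.0889 for Adam23 to 0.191 for Ccl17), and leaving out either day 1 library ended those of Ccl17 (0.11 and 0.134) and Apol7c (0.0783 and 0.151), with the slopes still negative. Aldh1a2 lost its call without control day 1 (adjusted p = 0.389). Without day 1 in both groups none of the 4 passed: the slopes were -0.22 for Ccl17 (adjusted p = 0.716), -0.28 for Apol7c (0.515), -0.25 for Aldh1a2 (0.564) and -0.25 for Adam23 (0.107). None passed among members with a gate sum of at least 20 either (adjusted p of 0.143 for Ccl17, 0.164 for Adam23 and Apol7c and 0.118 for Aldh1a2). The gate genes are given without a reading: Ccl22 was at 3680, 2170, 2880 and 1000 CPM in the diabetic and 5410, 1980, 3340 and 1020 CPM in the control members. Tbc1d4 had a slope of 0.00 (adjusted p = 0.988).

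By list, 2 of 18 migration genes fell (Marcksl1 and Adam23), 1 of 12 chemokine genes fell (Ccl17) and 1 rose (Ccl8, a chemokine of macrophages), and 1 of 16 checkpoint genes fell (Aldh1a2). Of 21 antigen presentation genes Tap1 and Psmb8 fell, and of 22 transcription factors Ehf fell. Ehf was at 351, 26, 11.4 and 8.4 CPM in the diabetic and 222, 13.7, 135 and 14.9 CPM in the control members, so control day 5 was high as well as day 1, and without day 1 its slope was -0.27 (adjusted p = 0.779) against -0.70. Over 19 alternatives Ehf passed in 9, Tap1 in 6 and Psmb8 in 12. Among the marker lists of other cells, the neutrophil gene Retnlg and the monocyte gene Chil3 fell, and the T cell gene Trac and the mast cell gene Tpsb2 rose. None of 12 costimulatory, 18 cytokine, 19 NF-kappaB, 11 survival or 18 glucose genes passed in either direction.

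Isg15, a ubiquitin-like protein induced by interferon, was the interferon-stimulated gene with the lowest adjusted p for day. It was at 472, 213, 175 and 115 CPM in the diabetic and 440, 134, 94.4 and 80.9 CPM in the control members, falling at each step in both groups. The slope was -0.37 per day (SE 0.0519, adjusted p = 0.00499), and -0.41 (adjusted p = 0.0189) among members with a gate sum of at least 20. It lost the call without diabetic day 7 (adjusted p = 0.0824) and without day 1 in both groups (0.107). On diabetic day 1 a single cell held 51.4% of its UMIs. The T cell set had the same order of days at lower levels, 288, 93.8, 86.2 and 50.3 CPM and 113, 88.5, 61.9 and 47 CPM. Usp18, the protease that removes Isg15 from proteins, fell by 0.36 (SE 0.0844, adjusted p = 0.0459), a call that leaving out either library of day 1 or day 7 ended (0.0846 to 0.274). They were 2 of 16 interferon-stimulated genes tested, all 16 had negative slopes, and the list's median was -0.23 against 0.01 over all genes.

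The promoters of 3 genes that fell over the days are shown, picked after their values were seen. Each had its highest level on day 1 in both groups, but their courses differed: in the control members Ccl17 and Apol7c were higher on day 5 than on day 3, and Isg15 was not. They are the 250 bases before the RefSeq start in GRCm38.p6, on the strand of the gene, and capitals mark GAAANNGAAA, the core of the element bound by interferon-activated factors, searched on both strands with overlapping matches joined. Isg15 lies at chr4:156200819-156201068 on the minus strand, Apol7c at chr15:77533316-77533565 on the minus strand and Ccl17 at chr8:94810203-94810452 on the plus strand.
Isg15: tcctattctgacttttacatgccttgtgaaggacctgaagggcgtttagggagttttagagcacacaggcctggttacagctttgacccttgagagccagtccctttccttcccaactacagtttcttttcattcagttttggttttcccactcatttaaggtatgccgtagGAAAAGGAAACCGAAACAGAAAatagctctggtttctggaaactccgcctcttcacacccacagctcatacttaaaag
Apol7c: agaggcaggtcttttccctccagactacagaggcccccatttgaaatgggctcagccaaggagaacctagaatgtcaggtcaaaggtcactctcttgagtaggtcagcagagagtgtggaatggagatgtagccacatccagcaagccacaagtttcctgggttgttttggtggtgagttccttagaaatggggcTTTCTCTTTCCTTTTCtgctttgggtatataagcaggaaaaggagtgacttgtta
Ccl17: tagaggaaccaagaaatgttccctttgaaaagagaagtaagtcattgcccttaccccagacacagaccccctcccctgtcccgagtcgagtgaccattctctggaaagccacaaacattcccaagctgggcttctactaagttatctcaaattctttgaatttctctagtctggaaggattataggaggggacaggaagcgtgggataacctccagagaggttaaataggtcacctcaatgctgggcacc

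The motif was found 3 times in the Isg15 window and 2 times in that of Apol7c, where it reads on the opposite strand, and these letters were not in the window of Ccl17. Of 32851 mouse promoter windows of this length, 978 (2.98%) held it. Of the 18 interferon-stimulated genes listed, 13 had a window and 7 of those held the motif.

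**Figure D4:**
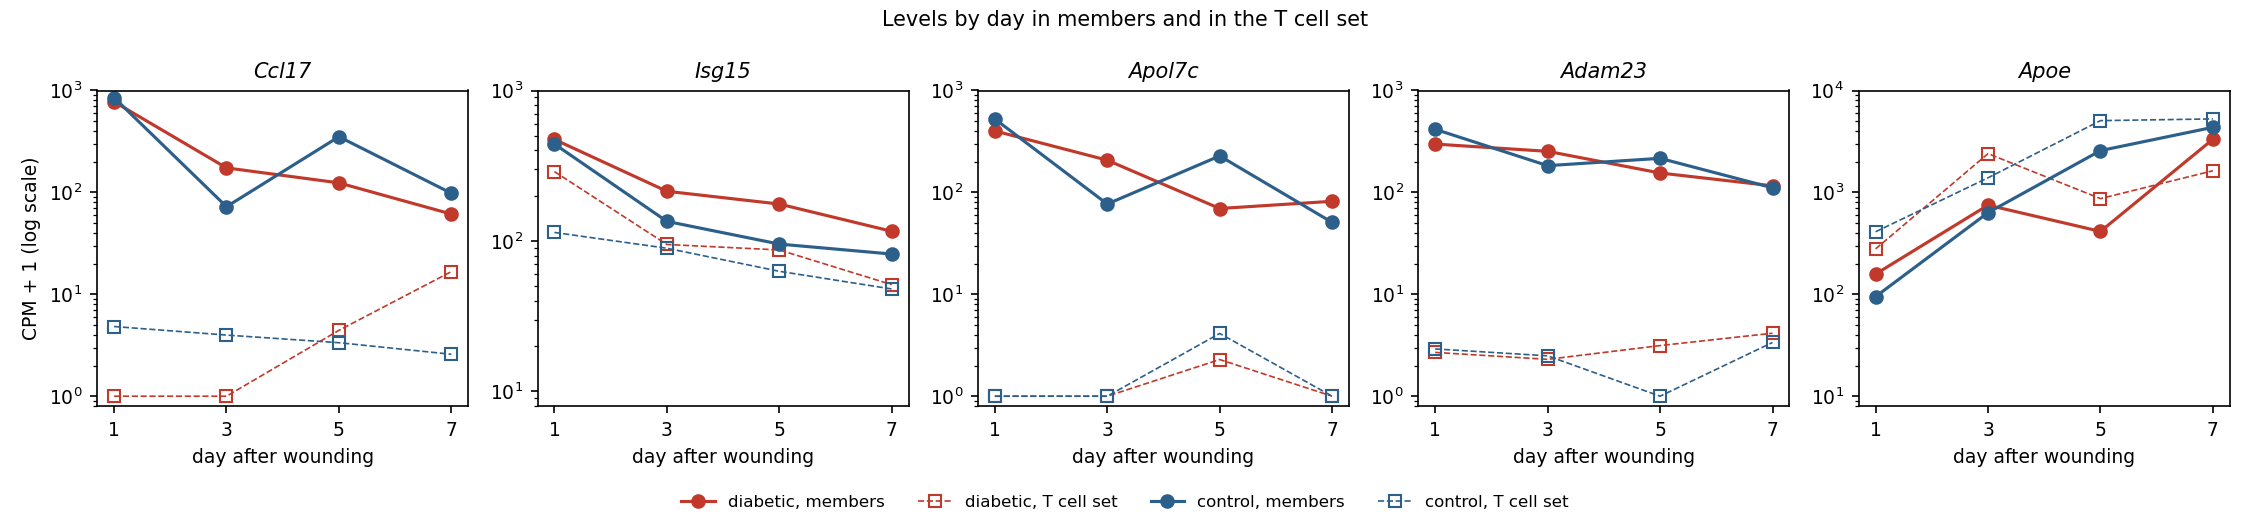
CPM + 1 (log axis) by day for Ccl17, Isg15, Apol7c, Adam23 and Apoe in mature dendritic cells (filled) and the T cell set (open) of diabetic and control wounds, 1 library per point. Isg15 falls from 472 to 115 CPM and from 440 to 80.9 CPM in the members. Apoe has a rising slope in the members, and its level also differs between days in the T cell set, where no trend was tested.

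Macrophage genes were among those that rose. Of 8 macrophage markers 7 rose, among them Csf1r (slope 0.30, adjusted p = 0.00427) and C1qb (0.65, adjusted p = 0.00978). Apoe stood at 157, 749, 413 and 3320 CPM in the diabetic and 93.9, 632, 2570 and 4350 CPM in the control members and rose by 0.72 per day (SE 0.096, adjusted p = 0.00425). In the T cell set Apoe stood at 278, 2400, 868 and 1630 CPM and 410, 1390, 5060 and 5260 CPM, so its level also differed between days there. Without diabetic day 7 the calls of Apoe and Csf1r were lost (adjusted p = 0.0863 for each), and that of C1qb without either day 7 library (0.152 and 0.0541). Igf1, Selenop, Gas6, Vcam1 and Ccl8 rose as well, and 4 of 16 uptake genes rose (Tlr7, Fcgr2b, Fcgr3 and Cd36), along with the immediate early genes Fosb and Jun of the 12 stress genes. Sparc, a matrix protein of fibroblasts, had the steepest slope of the genes called, 2.46 (adjusted p = 0.000982, and 0.0508 without control day 7), and it still passed without the 3 collagen-rich members described next (slope 1.33, adjusted p = 0.00716). When the 377 members with markers of other lineages were removed, control day 7 was left with 4 members and dropped out, and 8 genes passed for day over the other 7 libraries.

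Between diabetic and control members, with day as a block, 5 of 7546 genes (0.0663%) passed edgeR's quasi-likelihood test. Chil3, a chitinase-like secreted protein of monocytes, neutrophils and macrophages, was higher in the diabetic members, as were Havcr2, the inhibitory receptor TIM-3, and Satb1, a chromatin organiser of lymphocytes. The collagen genes Col1a1 and Col3a1 were lower.

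Chil3 was at 216, 130, 35.4 and 58.8 CPM in the diabetic and 44.5, 15.2, 6.55 and 12.5 CPM in the control members on days 1, 3, 5 and 7. Each diabetic library was above the control library of its day, though the groups overlapped across days. The log2 change was 2.45 (SE 0.275, adjusted p = 0.0126), and 2.82 (adjusted p = 0.0247) among members with a gate sum of at least 20. Counts were low, 5 to 10 UMIs in the control libraries, and 1 cell held 66.1% of the UMIs on diabetic day 5. In the T cell set Chil3 was at 841, 281, 18 and 69.2 CPM in the diabetic and 731, 37.2, 6.27 and 18.5 CPM in the control libraries, so the diabetic library was the higher on each day there also. The same held for thinned Cd209a dendritic cells, of which 14.94, 15.45, 4.17 and 9.09% held Chil3 in the diabetic libraries. In the control libraries 8.33, 2.73, 0 and 0% did. The 6 neutrophil markers, in the same members, summed to 2450, 2130, 1200 and 791 CPM and 4010, 1160, 113 and 1050 CPM. The 5 monocyte markers, Chil3 among them, summed to 1410, 548, 561 and 442 CPM and 430, 579, 218 and 371 CPM. Of these 5, 4 had a positive group change, with a median log2 change of 0.78, and 1.25 among members with a gate sum of at least 20. The part of either set of markers in the Chil3 difference was not tested. Without day 3 the adjusted p was 0.0578 and without day 7 it was 0.0887.

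Havcr2 was at 139, 107, 211 and 199 CPM in the diabetic and 39.5, 41, 83.9 and 72.2 CPM in the control members, and the groups did not overlap. The log2 change was 1.39 (SE 0.197, adjusted p = 0.0323). In members with a gate sum of at least 20 it was at 82.7, 75.6, 118 and 137 CPM and 36.3, 21.9, 39 and 45.4 CPM, also without overlap, with a change of 1.50 that did not pass (adjusted p = 0.233). Day ratios in the members were 3.53, 2.61, 2.52 and 2.76, against 2.36, 2.78, 0.989 and 1.19 in the T cell set. Among thinned Cd209a dendritic cells, 8.05, 11.8, 24.2 and 18.2% held Havcr2 in the diabetic libraries. In the control libraries 0, 2.73, 23.1 and 0% did, from few cells on days 5 and 7. The diabetic library was thus the higher on each day in these cells too. Without day 3 or day 7 the adjusted p was 0.0737 or 0.633.

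Satb1 was at 144, 132, 135 and 187 CPM in the diabetic and 54.4, 45.6, 57.7 and 76 CPM in the control members, again without overlap. The log2 change was 1.29 (SE 0.196, adjusted p = 0.0495). It was 0.93 (adjusted p = 0.851) in members with a gate sum of at least 20, and adjusted p was 0.058, 0.164 and 0.663 without day 1, 3 or 7. On control day 1 a single cell held 81.8% of the UMIs. The T cell set held more of it, 176 to 623 CPM. Among thinned Cd209a dendritic cells, 10.3, 6.36, 12.5 and 18.2% held Satb1 in the diabetic libraries. In the control libraries 8.33, 0, 0 and 0% did, again lower on each day. T cell markers in the members summed to 13.5, 127, 106 and 281 CPM in the diabetic and 44.5, 69.9, 83.9 and 159 CPM in the control libraries, higher in the diabetic library on days 3, 5 and 7, and 48 of the 65 members with at least 2 T cell UMIs were in diabetic day 7. Their part in the Satb1 difference was not tested.

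Collagen transcripts were found almost only on day 7. Col1a1 was at 0, 1.08, 1.14 and 592 CPM in the diabetic and 0, 7.59, 10.5 and 2900 CPM in the control members (log2 change -2.455, adjusted p = 0.0126). Of the members, 3 held between 971 and 5055 UMIs of collagen and decorin genes, 1 on diabetic and 2 on control day 7, while the next held 23. Col1a1 was nevertheless found in 103 of 199 diabetic and 76 of 91 control members on day 7, and the T cell set had 66.1 and 2500 CPM of it on that day. Without the 3 cells the change in Col1a1 was -2.03 (adjusted p = 0.358). Chil3 alone then passed, with adjusted p of 0.0694 for Havcr2 and 0.0927 for Satb1.

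**Figure D5:**
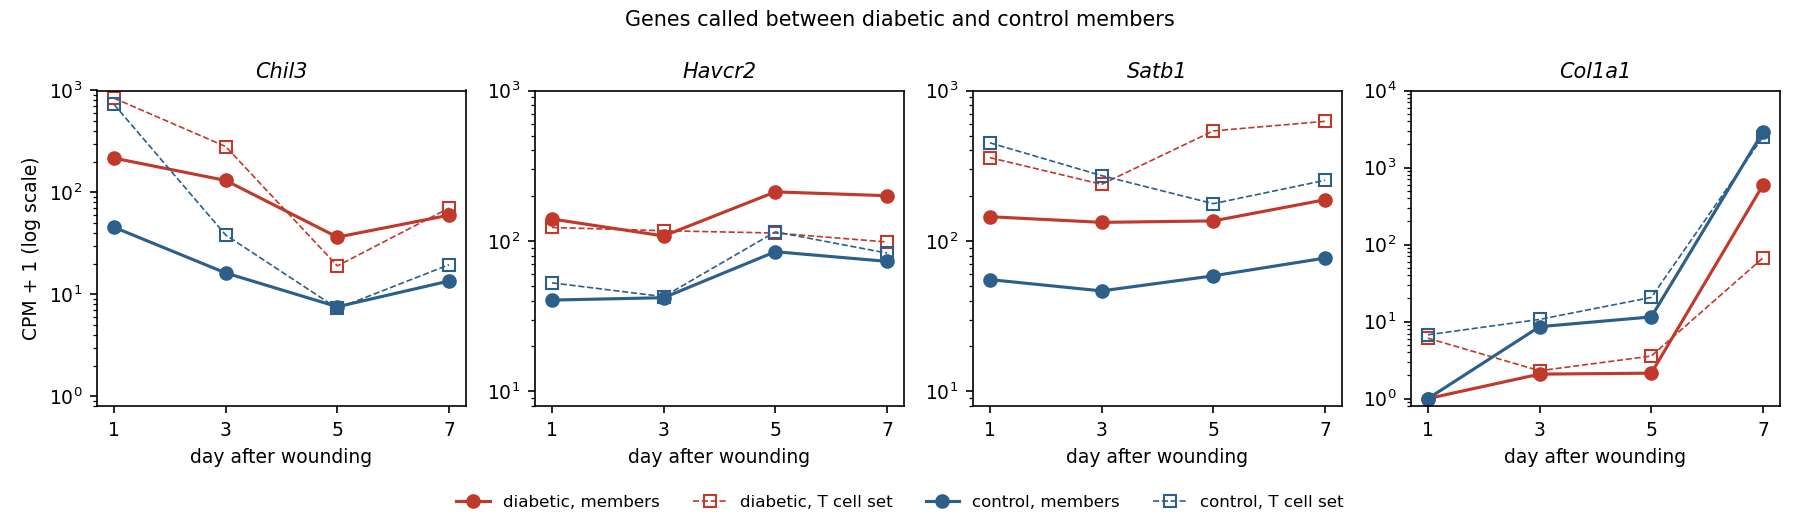
CPM + 1 (log axis) by day for Chil3, Havcr2, Satb1 and Col1a1 in mature dendritic cells (filled) and the T cell set (open) of diabetic and control wounds, 1 library per point. Havcr2 lies at 107 to 211 CPM in the diabetic and 39.5 to 83.9 CPM in the control members, and Col1a1 is near 0 except on day 7.

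The listed genes otherwise did not pass for group. None of 18 migration genes, 13 costimulatory, 18 cytokine, 19 NF-kappaB, 21 antigen presentation, 22 transcription factor or 18 glucose genes did so, and 1 of 16 checkpoint genes, Havcr2, did. Of 18 interferon-stimulated genes, 16 had a positive change and the median was 0.81 against -0.01 over all genes; 11 had an unadjusted p under 0.05, as did 482 of all 7546 genes, and none passed after adjustment. Among members with a gate sum of at least 20 the median was 0.41, and 5 of 16 had an unadjusted p under 0.05. The list's summed level was 3630, 1230, 1360 and 1220 CPM in the diabetic and 2120, 849, 844 and 1020 CPM in the control members. In the T cell set it was 2730, 910, 927 and 1090 CPM and 2060, 838, 771 and 667 CPM. The diabetic library was the higher on each day in all members, in the T cell set and in the C1q macrophages. Among members with a gate sum of at least 20 the sums were 4170, 1130, 1540 and 980 CPM and 1940, 1000, 1070 and 1140 CPM. Day 7 ran the other way there. In the Cd209a dendritic cells the diabetic library was lower on day 1 (945 against 1110 CPM) and day 7 (791 against 1140 CPM), and higher on days 3 and 5. Of 12 stress genes 10 and of 8 macrophage markers 7 had a negative change, and none of either list passed.

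Whether the course over days differed between the groups was tested with an interaction term, and 2 of 7546 genes (0.0265%) passed. Cxcl5, a neutrophil-attracting chemokine, had a difference in slope of 4.15 (diabetic minus control, adjusted p = 0.0292), but the 87 UMIs of control day 1 came from 1 cell and 84.1% of those of diabetic day 7 from another. Col4a1 had -2.08 (adjusted p = 0.0292), with 60.8% of its control day 7 UMIs in 1 cell. Whether the group effect in the members differed from that in Cd209a dendritic cells was tested over 7 libraries, leaving out control day 7 with 7 reference cells. None of 7847 genes (0%) passed edgeR's test, 332 had an unadjusted p under 0.05 and DESeq2 called 3. The lowest adjusted p was 0.12, for Stap1, Ifitm6 and Ifitm1.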

How the data were processed

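The authors deposited 1 table of raw UMI counts per library, with genes in lines and numbered cells in columns. Per the labels the reads were trimmed with fastp 0.20.1 and mm9 was named. The methods name UMI-tools, STAR and Ensembl release 92, and a BD Rhapsody capture where the series record names 10X. All 8 tables were used as deposited. Total counts were 19236522 to 33842509 UMIs per library. The members and gene lists were chosen with earlier results of these data known, and named genes were those of the lists, those called and the 15 with the largest smallest fold over Cd209a dendritic cells, a few of which are not reported here.

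Counts were summed over the members of each library. Sums were tested with edgeR 4.0.16 (TMM, filterByExpr, quasi-likelihood, Benjamini-Hochberg adjustment) in R 4.3.3, with DESeq2 1.42.0 as an alternative. Group was tested with day as a block, since libraries share the labelled day. Shares carry exact 95% binomial intervals, their ratios exact conditional intervals, and the mean ratio an exact two-sided sign-flip permutation test. Intervals cover counting error only. Fold changes against 0 UMIs used a floor of 3 counts. Cells were thinned to 1000 UMIs for shares of cells with a UMI. Promoters were taken from RefSeq (GRCm38.p6) by symbol, and none was found in that table for Ccr7, Usp18, Socs2, Relb, Cd40 and Ehf. On simulated counts the group test recovered 64% of 2-fold and 100% of 4-fold changes (7480 genes tested), and the trend test 24% of 2-fold and 94% of 4-fold changes over the days sampled (7056 genes tested). The changed genes, 100 per fold, were drawn only from those with many member UMIs. All genes were given 1 common dispersion and no other effect. Recovery for genes with few UMIs or with most UMIs in 1 cell was thus not measured. False calls were 6 for group and 1 for trend. Alternatives were the gate, cell filters, doublets, other lineages, leaving out a library or day, and the tool and filter. Those added after seeing the data were gate sums of at least 10 and 20, the highest 5% of doublet scores, the 3 collagen-rich cells and leaving out day 1 in both groups.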

Additional observations from a re-analysis of the deposited data

Results flagged for a closer look

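In 5 of 52 sets of 4 libraries tested, 1 library stood far from the other 3 by Dixon's criterion, which chance does in about 1 in 20. The share of mature dendritic cells was 0.521% on control day 1 against 1.89 to 2.14% on the other control days. Ccl17 was at 774 CPM on diabetic day 1 against 60.3 to 173 CPM, and Isg15 at 440 CPM on control day 1 against 80.9 to 134 CPM. Cd274 was at 1240 CPM on control day 1 against 436 to 481 CPM. Cacnb3 was at 395 CPM on diabetic day 7 against 679 to 698 CPM. In 4 of the 5 the library apart was a day 1 library, with 23 or 25 members.

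The slope over days differed between the groups for Cxcl5, by 4.15 on the log2 scale (diabetic minus control), and for Col4a1, by -2.08, both by edgeR's interaction test. Single cells held most of the UMIs behind both.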

How the results depend on the processing

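The direction of the mean share ratio was the same in 19 of 19 alternatives, and 57 of 60 share ratios moved by less than their interval. The others were day 7 with a gate sum of at least 20 (1.985), and day 5 (8.07) and day 7 (16.6) once members with markers of other lineages were removed, when 155 and 15, and 52 and 4, members were left in the diabetic and control libraries; the cause was not tested. Of 710 alternative values for single genes, 477 kept direction and side of the threshold, 223 lost the call, 10 gained it and 0 reversed. The 710 include genes that the main fit did not call, such as Atf3, Egr1 and Stap1, and these count as kept when they stay uncalled. All 10 gains were in such genes, and all 223 losses in genes that were called.

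For the group effect, 5 genes became 11 with DESeq2, 122 with no filter on low counts, 10 in libraries with at least 30 members, 9 without members of other lineages (control day 7, with 4 members left, drops out too), 3 at a gate sum of at least 10, 1 at 20 or more, and 1 without the collagen-rich cells. Leaving out a day gave 1 to 18. With no replicate block (day not paired) 0 were called by edgeR, 288 at an unadjusted p under 0.05. Chil3 passed in 12 of 15 alternatives, Havcr2 in 7 and Satb1 in 4.

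For the trend, 142 genes became 651 with no filter, 416 at a gate sum of at least 3, 24 at 10, 21 at 20, and 8 without members of other lineages, again over 7 libraries, where leaving out control day 7 alone gave 11. Leaving out a library gave 2 to 224. For the interaction, no filter gave 32, and 0 were left in libraries with at least 30 members, at a gate sum of at least 3, 10 or 20, without other lineages, without the collagen-rich cells and without day 1; leaving out a library gave 0 to 4. For the difference from Cd209a dendritic cells, DESeq2 gave 3 and leaving out a day 0 to 2. The cause of these shifts was not tested. Day 1, with 23 and 25 members, and the 7 Cd209a dendritic cells of control day 7 set the limits of depth.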
